A study of Mus musculus with 2 samples.

Results

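The genes described here encode the ATP-binding cassette (ABC) transporters and the organic ion carriers of the Slco and Slc22 families. They were chosen by symbol alone, as every gene of the authors' deposited table whose symbol begins with Abca to Abcg, Slco or Slc22a followed by a number, with Abcb11 left out. The rule found 82 of 33224 gene symbols, namely 48 ABC genes, 15 Slco genes and 19 Slc22 genes. RNA from regenerating livers of male C57BL/6 mice was sequenced as 1 library of wild type (WT) and 1 library of PPARbeta-null (KO) liver, and the study compared them to ask what loss of PPARβ, a lipid-sensing nuclear receptor encoded by Ppard, changes during regeneration. The time, 48 hr after partial hepatectomy (PH), comes from the study's text. The labels give an age of 4 months for both libraries, while other descriptions of the same mice give another age or a range. How the null allele was made, and whether a library pooled several mice, is not given in the sources used here. With 1 library per genotype there were no replicates, so no ratio has a check between mice, no test was run, and the lane (2 for WT, 3 for KO) and the mouse cannot be told apart from the genotype.

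Hepatocytes take up bile acids, hormones, drugs and other organic ions from the blood through Slco and Slc22 carriers on the sinusoidal membrane, and pump them out again with ABC proteins, which spend ATP. ABC pumps on the canalicular membrane load bile with phospholipid, sterol and conjugated organic anions, whereas others return solutes to the blood, move lipids between membranes, or bring fatty acids into peroxisomes. Several of these genes are textbook targets of nuclear receptors, and some family members, among them Abce1 and the Abcf genes, carry the ABC domains but transport nothing and act in translation.

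Values are FPKM, a fragment density per kilobase of exon scaled to library size, as the authors deposited them. From the lowest values of long single-exon genes, a transcript of 1 kb with 1 fragment had 0.0195 FPKM in WT and 0.0176 in KO, so that 1 FPKM on such a transcript rested on about 51.3 and 56.8 fragments. The 95% intervals printed with ratios come from these estimated fragments, assume that fragments were independent, and cover counting error only. Ppard itself stood at 2.67 FPKM in WT and 2.42 in KO (chr17:28369699-28438414 on NCBI37, mm9). A value over the whole locus cannot check the genotype without knowing which part was removed, and KO means below the library labelled PPARbeta-null. Most genes were somewhat lower in the KO library, since of the 11723 genes whose mean FPKM was 1 or more 8866 were lower and 2857 higher, and the median log2 ratio (KO/WT, pseudocount 0.1 FPKM) was -0.24. Scaling the KO values up to remove that offset shifted every log2 ratio by 0.24, scaling to equal upper quartiles by 0.20 and scaling to equal sums by -0.05, and the text names the genes whose direction depends on this choice.

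Of the 82 transporter genes, 43 had a mean FPKM of at least 1 and are called expressed here, 12 had a mean from 0.1 to 1, 13 had a mean below 0.1 and 14 were listed at 0 in both libraries. Among the 43 expressed genes 25 were lower and 18 higher in KO, and after centring on all genes 19 were lower and 24 higher. Their median log2 ratio was -0.08, with a range from -1.61 to 1.56, beside -0.24 over all genes. Of the 43 genes, 30 differed by less than 1.5-fold and 6 had a counting interval that includes 1, while 7 changed side under some scaling. More than 2-fold lower in KO were 3 of 43 (6.98%, beside 8.69% of all genes at the same level of expression), namely Abcd2, Slco1a4 and Abcg1. More than 2-fold higher were 2 of 43 (4.65%, beside 1.77% of all genes), namely Slc22a5 and Slc22a3. After centring 1 of 46 genes at this limit was more than 2-fold lower, Abcd2 (2.17%, beside 6.1% of all genes), and 4 were more than 2-fold higher (8.7%, beside 2.85%), Slco1b2 and Abcb4 joining the carriers named above. Upper-quartile scaling gave the same genes among 45, beside 6.44% and 2.65% of all genes. Summed over all 82 genes, the level was 1323 FPKM in WT and 1562 in KO, and a single gene, Slco1b2, made up 15.0% of the WT sum and 23.6% of the KO sum.

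**Figure D1:**
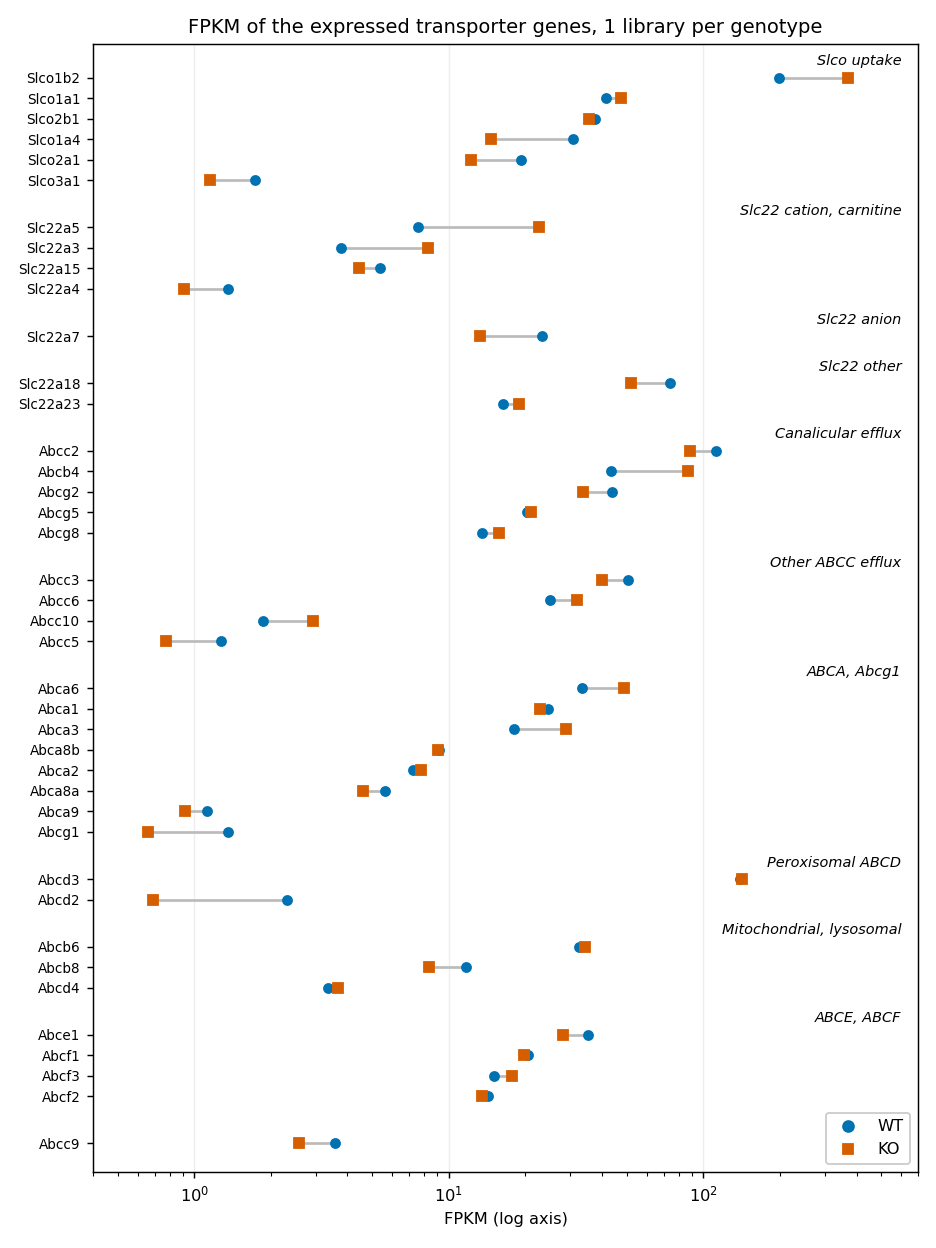
FPKM (log axis) of the expressed transporter genes named in the text, in the WT (circles) and KO (squares) library, 1 library per genotype, ordered by role and level, with a line joining the values of a gene. The lines of Slc22a5, from 7.60 to 22.6 FPKM, and Abcd2, from 2.31 to 0.690, are the longest among the expressed genes, while the markers of Abcd3, Abca8b and Abcg5 nearly coincide.

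The sequences upstream of 5 genes and the stretch between Abcg5 and Abcg8 are shown so that the starts of genes with high, low and near-equal ratios can be read side by side. They are the 250 bases before the first annotated base in RefSeq on GRCm38.p6, a later build than the one the FPKM were made on, read 5′ to 3′ on the strand of the gene, and the table used held such a window for 65 of the 82 genes. Capitals mark matches on either strand to AGGTCA, the element that many nuclear receptors bind as a repeat, or to TGACNNNGC, the core of the antioxidant response element. These motifs can share the letters TGAC.
Slc22a5, chr11:53891704-53891953, minus strand: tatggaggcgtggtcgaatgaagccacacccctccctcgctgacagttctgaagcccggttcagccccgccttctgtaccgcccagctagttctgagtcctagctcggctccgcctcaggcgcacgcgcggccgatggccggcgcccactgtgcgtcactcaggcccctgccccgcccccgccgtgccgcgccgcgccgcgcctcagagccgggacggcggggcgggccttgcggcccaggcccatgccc
Slco1b2, chr6:141629268-141629517, plus strand: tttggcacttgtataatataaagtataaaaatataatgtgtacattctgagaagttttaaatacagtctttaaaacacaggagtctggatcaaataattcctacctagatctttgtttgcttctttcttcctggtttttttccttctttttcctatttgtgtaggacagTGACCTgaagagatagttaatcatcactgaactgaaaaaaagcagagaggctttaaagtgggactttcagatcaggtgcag
Slco1a4, chr6:141856221-141856470, minus strand: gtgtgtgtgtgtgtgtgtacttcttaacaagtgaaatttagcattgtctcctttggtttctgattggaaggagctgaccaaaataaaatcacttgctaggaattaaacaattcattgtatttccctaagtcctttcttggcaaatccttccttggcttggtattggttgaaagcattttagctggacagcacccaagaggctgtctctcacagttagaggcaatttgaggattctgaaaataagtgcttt
Abcc2, chr19:43782058-43782307, plus strand: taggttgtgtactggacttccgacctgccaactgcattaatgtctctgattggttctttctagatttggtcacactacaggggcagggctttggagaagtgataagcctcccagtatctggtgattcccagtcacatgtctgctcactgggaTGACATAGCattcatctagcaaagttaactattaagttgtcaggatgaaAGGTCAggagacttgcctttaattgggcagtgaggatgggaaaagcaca
Abcc4, chr14:118706220-118706469, minus strand: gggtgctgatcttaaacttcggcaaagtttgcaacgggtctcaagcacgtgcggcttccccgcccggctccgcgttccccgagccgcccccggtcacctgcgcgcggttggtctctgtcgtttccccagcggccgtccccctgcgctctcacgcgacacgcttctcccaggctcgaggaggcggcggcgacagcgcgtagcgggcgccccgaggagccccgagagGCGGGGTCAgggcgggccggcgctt
Abcg5 to Abcg8, chr17:84683012-84683120, plus strand: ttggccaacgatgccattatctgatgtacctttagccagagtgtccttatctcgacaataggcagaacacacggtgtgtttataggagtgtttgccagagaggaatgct
The window of Slco1b2 holds 1 match to AGGTCA, read on its other strand, that of Abcc2 holds 1 match to each motif, and that of Abcc4, the first of the windows listed for that gene, holds 1 match to TGACNNNGC. No match lies in the windows of Slc22a5 and Slco1a4 or in the 109 bases between Abcg5 and Abcg8, which are transcribed away from each other. Over all 27025 gene symbols with a window, 13.8% held AGGTCA and 10.1% held TGACNNNGC. Of the 65 transporter genes 7 held AGGTCA (10.8%) and 7 held TGACNNNGC (10.8%), and of the 31 expressed ones 6 held the first (19.4%) and 2 the second (6.45%). The expressed genes with AGGTCA were Abcb6, Abcc10, Abcc2, Abcg2, Slco1a1 and Slco1b2, and their log2 ratios lay on both sides of 0. A match describes letters in these windows and says nothing of binding.

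The organic anion uptake carriers of the Slco family were led by Slco1b2, the hepatocyte carrier of bile acids, bilirubin and many drugs. It stood at 198 FPKM in WT and 369 in KO, with KO/WT at 1.86 (1.84 to 1.89), the highest level of all 82 genes in both libraries. It has sister genes on the same stretch of chromosome 6, of which Slco1a4 was lower and Slco1a1 slightly higher in KO. Slco1a4, a carrier of bile acids, cardiac glycosides and steroid conjugates, stood at 30.7 FPKM in WT and 14.7 in KO, so that WT was 2.10-fold higher (2.01 to 2.19). Slco1a1, a carrier of steroid and bile acid conjugates that is more abundant in male liver, stood at 41.4 FPKM in WT and 47.7 in KO. These 3 liver carriers thus had log2 ratios of 0.90, -1.07 and 0.20 in genes that share ancestry and neighbourhood. Slco2b1, another hepatocyte uptake carrier, stood at 37.5 FPKM in WT and 35.7 in KO, lower in KO as deposited and with equal sums but higher in KO after upper-quartile scaling or centring.

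Outside the hepatocyte uptake carriers, 2 Slco genes were expressed. Slco2a1, the prostaglandin transporter, known from endothelial cells, stood at 19.2 FPKM in WT and 12.2 in KO, with KO/WT at 0.633 (0.603 to 0.665). Slco3a1, a broadly expressed carrier, stood at 1.73 FPKM in WT and 1.16 in KO. Both were lower in KO under every scaling. In RNA from whole tissue fewer cells of a type and less RNA per cell cannot be told apart. Beside these values, 9 of 10 endothelial markers were lower in KO, as were 8866 of all 11723 expressed genes. The median log2 ratio of these markers was -0.40, beside -0.24 over all genes. Their summed level was 79.3 FPKM in WT and 62.9 in KO, with no marker at 0. The part of such cells in the values of Slco2a1 was not tested. Of the 15 Slco genes, 6 were expressed, 4 of them lower and 2 higher in KO, with a median log2 ratio of -0.31. The family sum, which follows its leading gene, was 329 FPKM in WT and 481 in KO, of which Slco1b2 was 60.2% and 76.8%. The other 9 were at or near 0, among them Slco1a5 at 0.0777 FPKM in WT and 0.104 in KO, which rest on 10.3 and 15.3 estimated fragments and do not differ beyond counting error.

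The Slc22 carriers of organic cations and carnitine contained both expressed genes that were over 2-fold higher in KO. Slc22a5 (Octn2), the carnitine transporter that supplies mitochondrial fatty acid oxidation, stood at 7.60 FPKM in WT and 22.6 in KO, with KO/WT at 2.97 (2.78 to 3.17), on about 1194 and 3925 fragments (locus chr11:53678039-53705162 on mm9). Slc22a3 (Oct3), a low-affinity carrier of monoamines and other cations, stood at 3.77 FPKM in WT and 8.32 in KO, with KO/WT at 2.21 (2.02 to 2.41; locus chr17:12612838-12700570). Both were higher in KO under every scaling. Slc22a15, a carrier of zwitterions, stood at 5.35 FPKM in WT and 4.44 in KO. Slc22a4 (Octn1), the ergothioneine transporter, stood at 1.36 FPKM in WT and 0.914 in KO, on 157 and 117 fragments.

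Both weakly expressed cation and carnitine carriers with a mean from 0.1 to 1 FPKM were also higher in KO. Slc22a21 (Octn3), a carnitine carrier next to Slc22a5, stood at 0.458 FPKM in WT and 1.01 in KO, with KO/WT at 2.20 (1.70 to 2.89). Slc22a2 (Oct2), best known as a kidney cation carrier, stood at 0.619 FPKM in WT and 1.07 in KO, with KO/WT at 1.73 (1.27 to 2.35). Of the 100-base stretches of the Slc22a5 transcripts 13.7% also occur in Slc22a21, the only sharing above 5% among the 43 expressed genes, and the authors' division of such reads between these genes is not known here. Of the stretches of Slc22a21 12.1% are shared, so its ratio is uncertain.

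The other expressed Slc22 carriers, an anion carrier and a pair of orphans, lay on both sides of 1. Slc22a7 (Oat2), an anion carrier of cyclic nucleotides and orotate, stood at 23.2 FPKM in WT and 13.3 in KO, with KO/WT at 0.573 (0.536 to 0.611), and made up 99.9% of the sum of the 7 anion carriers in both libraries. The kidney anion carriers Slc22a6 and Slc22a8 were at 0 or below 0.1 FPKM. Slc22a18, an orphan carrier encoded in an imprinted region, stood at 73.7 FPKM in WT and 51.9 in KO, with KO/WT at 0.705 (0.678 to 0.733). Slc22a23, another orphan, stood at 16.4 FPKM in WT and 18.9 in KO. The ratio of Slc22a7 was the lowest among the 8 expressed Slc22 genes and that of Slc22a5 the highest. Of the 8 genes 4 were lower and 4 higher, beside 8866 lower and 2857 higher of all 11723 expressed genes.

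**Figure D2:**
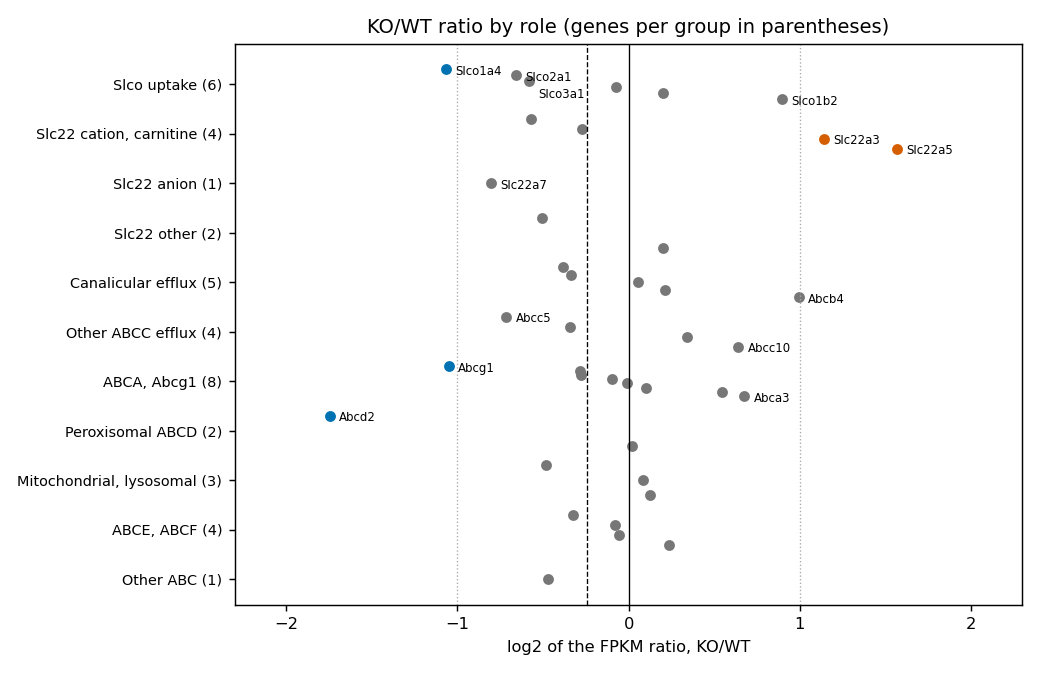
log2 of the FPKM ratio, KO/WT, of the expressed transporter genes named in the text (points, spread vertically within a role for legibility), with the number of genes drawn per role. Blue points are over 2-fold lower and orange points over 2-fold higher in KO, dotted lines mark 2-fold, and the dashed line is the median of all 11723 genes at -0.24. Abcd2 at -1.75 and Slc22a5 at 1.57 lie farthest out, and Abcb4 lies on the dotted line.

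Among the pumps of the canalicular membrane in this set, which leaves out Abcb11, the highest was Abcc2 (Mrp2), the exporter of bilirubin glucuronide and glutathione conjugates. It stood at 112 FPKM in WT and 88.7 in KO, with KO/WT at 0.791 (0.778 to 0.804), in a locus that also names Gm10768. Abcb4 (Mdr2), which flips phosphatidylcholine into bile, stood at 43.5 FPKM in WT and 86.8 in KO, with KO/WT at 1.99 (1.94 to 2.04), just short of 2-fold as deposited. Abcb4 thus came level with Abcc2 in the KO library, while in WT Abcc2 was well above it. Abcg2 (Bcrp), an exporter of urate, sulfates and many drugs, stood at 43.9 FPKM in WT and 33.7 in KO, with KO/WT at 0.766 (0.737 to 0.796). Abcc2 and Abcg2 were lower in KO under every scaling, by a log2 ratio of -0.10 and -0.14 after centring.

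The sterol exporter is a dimer of Abcg5 and Abcg8, which sends cholesterol and plant sterols into bile. Abcg5 stood at 20.2 FPKM in WT and 21.0 in KO, a ratio whose interval includes 1 (0.982 to 1.10). Abcg8 stood at 13.6 FPKM in WT and 15.7 in KO, with KO/WT at 1.16 (1.10 to 1.22). The partners kept their order in both libraries, with Abcg5 above Abcg8. Both have the same locus span on opposite strands in the table, and the library kit does not mark strand, so reads of overlapping exons cannot be told apart by strand. Of the drug exporters of the P-glycoprotein type, Abcb1a (Mdr1a) stood at 1.19 FPKM in WT and 0.761 in KO. Abcb1b (Mdr1b) stood at 0.654 FPKM in WT and 0.280 in KO, with KO/WT at 0.427 (0.316 to 0.572), on 146 and 69.0 fragments. They share 7.72% and 8.65% of their 100-base stretches with each other or Abcb4, so that the levels of these 2 genes are less certain than that of Abcb4, with 0.276% shared. The sum over the 7 canalicular genes of the set, without Abcb11, differed little, at 235 FPKM in WT and 247 in KO, of which Abcc2 was 47.7% and 35.9%.

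Expressed multidrug resistance proteins of the Abcc family, other than Abcc2, had ratios on both sides of 1. Abcc3 (Mrp3), which returns bile acid and drug conjugates to the blood, stood at 50.8 FPKM in WT and 40.0 in KO, with KO/WT at 0.787 (0.768 to 0.808). Abcc6 (Mrp6), which releases ATP from hepatocytes and limits ectopic calcification, stood at 25.1 FPKM in WT and 31.8 in KO, with KO/WT at 1.27 (1.23 to 1.31). The strongest 2 genes of the group therefore lay on opposite sides of 1. Abcc10 (Mrp7), an exporter of drug and estradiol conjugates, stood at 1.87 FPKM in WT and 2.92 in KO, with KO/WT at 1.56 (1.40 to 1.74). Abcc5 (Mrp5), an exporter of cyclic nucleotides, stood at 1.27 FPKM in WT and 0.774 in KO, with KO/WT at 0.610 (0.520 to 0.718). The exons of Abcc10 overlap those of Dlk2 on the other strand.

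Both genes of this group with a mean from 0.1 to 1 FPKM were over 2-fold lower in KO. Abcc4 (Mrp4), a basolateral exporter of bile acids and cyclic nucleotides, stood at 0.954 FPKM in WT and 0.225 in KO, so that WT was 4.23-fold higher (3.27 to 5.58), on 280 and 73.3 fragments. Abcc1 (Mrp1), an exporter of leukotriene C and glutathione conjugates, stood at 0.431 FPKM in WT and 0.188 in KO, and WT was 2.29-fold higher (1.71 to 3.05). Among transporter genes with a mean from 0.1 to 1 FPKM, 5 of 12 were over 2-fold lower in KO (41.7%, beside 27.1% of all 4004 genes in that range) and 1 of 12 was over 2-fold higher (8.33%, beside 5.79%). The 5 were Abca4, Abcc4, Abcb1b, Abcc1 and Abcg3, of which Abcc1 and Abcg3 were named after their values were seen, and the 1 was Slc22a21.

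The lipid transporters of the Abca family, with Abcg1, held values on both sides. Abca6, an Abca member of unsettled substrate, stood at 33.5 FPKM in WT and 48.8 in KO in a locus whose status in the deposited table is FAIL. Abca3, known for loading surfactant phospholipid into lamellar bodies, stood at 18.1 FPKM in WT and 28.9 in KO, with KO/WT at 1.60 (1.55 to 1.65). Abca1, which loads cholesterol and phospholipid onto apolipoprotein A1, stood at 24.5 FPKM in WT and 22.9 in KO, with KO/WT at 0.936 (0.914 to 0.959) as deposited that passes above 1 after upper-quartile scaling or centring. The other main sterol exporter, Abcg1, which serves high-density lipoprotein and is strong in macrophages, stood at 1.36 FPKM in WT and 0.657 in KO, so that WT was 2.07-fold higher (1.66 to 2.56; locus chr17:31194643-31253770 on mm9). Abcg1 lay closest to the expression limit, with a mean of 1.01 FPKM, and after centring its log2 ratio was -0.73 on the pseudocount scale. Beside this value, 8 of 9 Kupffer cell and macrophage markers were lower in KO, as were 8866 of all 11723 expressed genes. The median log2 ratio of these markers was -0.85, beside -0.24 over all genes. Their sum was 61.5 FPKM in WT and 35.8 in KO, with none at 0, but their part in the level of Abcg1 was not tested.

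The remaining expressed lipid transporters differed by less than 1.5-fold. Abca8b and Abca8a, a neighbouring pair linked to cholesterol efflux, stood at 9.16 and 5.61 FPKM in WT and at 9.10 and 4.62 in KO. Abca2, a lysosomal sterol and sphingolipid transporter, stood at 7.25 FPKM in WT and 7.79 in KO. Abca9, listed in 2 rows of the same span that were added, stood at 1.13 FPKM in WT and 0.924 in KO, and passed the limit of 1 only through that addition. The direction of Abca8b turned with upper-quartile scaling or centring. Below the expression limit, Abca4, the retinal lipid flippase, stood at 0.167 FPKM in WT and 0.0364 in KO, on 62.1 and 15.0 fragments, and WT was 4.58-fold higher (2.57 to 8.67). Of the 8 expressed genes of this group 5 were lower and 3 higher in KO, beside 8866 and 2857 of all 11723 expressed genes. The group's median log2 ratio was -0.05, beside -0.24 over all genes. After upper-quartile scaling the group median was 0.11 and after centring 0.14. The sum over all 18 was 103 FPKM in WT and 126 in KO, of which Abca6, in the locus marked FAIL, was 32.6% and 38.9%.

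The ABCD transporters of the peroxisome bring activated fatty acids in for β-oxidation. Abcd3 (Pmp70), the carrier of branched and long-chain acyl-CoA and bile acid intermediates, stood at 140 FPKM in WT and 142 in KO, with KO/WT at 1.02 (0.998 to 1.03), and below 1 with equal sums. Abcd2, a transporter of very long-chain and polyunsaturated acyl-CoA, stood at 2.31 FPKM in WT and 0.690 in KO, so that WT was 3.35-fold higher (2.87 to 3.92), on 656 and 217 fragments (locus chr15:90976248-91022238 on mm9). Abcd2 had the lowest ratio of all 43 expressed genes, and it stayed over 2-fold lower in KO under every scaling.

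The expressed ABC transporters of mitochondria and lysosomes differed by less than 1.5-fold. Abcb6, a porphyrin transporter, stood at 32.5 FPKM in WT and 34.4 in KO. Abcb8, a mitochondrial iron and potassium transporter, stood at 11.7 FPKM in WT and 8.39 in KO, with KO/WT at 0.717 (0.668 to 0.768). Abcd4, the lysosomal cobalamin exporter, stood at 3.36 FPKM in WT and 3.66 in KO, with an interval of its ratio that includes 1 (0.959 to 1.24). The interval of Abcb8 lay wholly below 1 and that of Abcd4 did not. Among weakly expressed genes, the lysosomal peptide transporter Abcb9 stood at 0.355 FPKM in WT and 0.492 in KO.

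The ABC proteins of translation also differed by less than 1.5-fold. Abce1, the ribosome recycling factor, stood at 35.2 FPKM in WT and 28.1 in KO, with KO/WT at 0.800 (0.773 to 0.828). Abcf1, which joins initiation factor eIF2, stood at 20.5 FPKM in WT and 19.8 in KO. Abcf3 stood at 15.0 FPKM in WT and 17.6 in KO, with KO/WT at 1.18 (1.12 to 1.24). Abcf2 stood at 14.3 FPKM in WT and 13.5 in KO. The intervals of Abcf1 and Abcf2 include 1, and their direction turned with upper-quartile scaling or centring. Abcc9 (Sur2) is a subunit of ATP-sensitive potassium channels of muscle and mural cells rather than a pump. It stood at 3.56 FPKM in WT and 2.57 in KO, with KO/WT at 0.722 (0.667 to 0.782). Beside this value, 8 of 9 stellate cell markers were lower in KO, as were 8866 of all 11723 expressed genes. The median log2 ratio of these markers was -0.57, beside -0.24 over all genes. The stellate cell markers summed to 99.3 FPKM in WT and 66.3 in KO, with none at 0. The part of such cells in the level of Abcc9 was not tested.

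**Figure D3:**
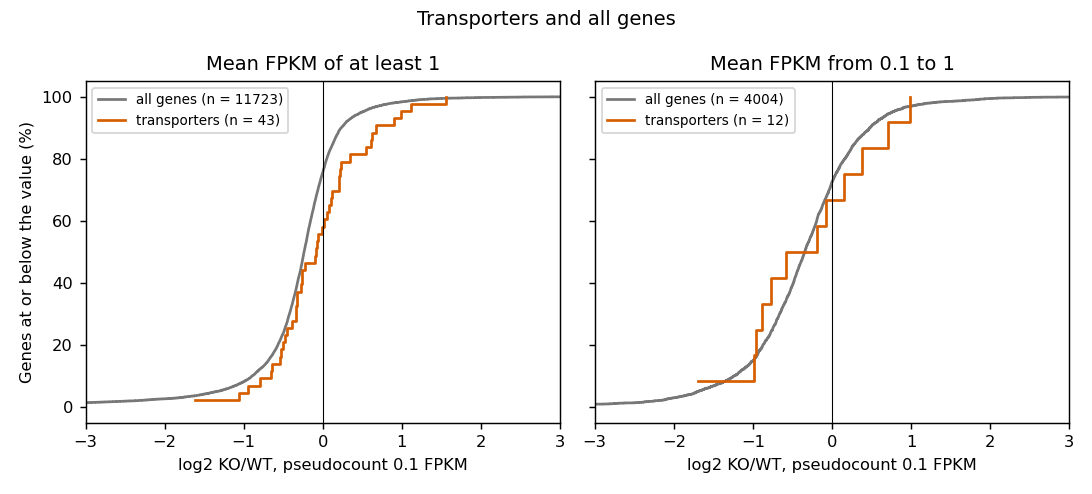
Share of genes (%) at or below each log2 ratio, KO/WT with a pseudocount of 0.1 FPKM, for the transporter genes (orange) and all genes (grey), split by mean FPKM. Above 1 FPKM the line of the 43 transporters runs to the right of that of 11723 genes over most of its length, with medians of -0.08 and -0.24, and in the range from 0.1 to 1 the line of 12 transporters crosses that of 4004 genes.

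Many of these genes lie in tandem. Within a gap of 300 kb, 45 of the 82 genes fell into 16 groups of neighbours. On chromosome 5 Abcb1a, Abcb1b and Abcb4 lie in this order with log2 ratios of -0.64, -1.23 and 0.995. On chromosome 11 Slc22a5 and Slc22a21 were higher in KO, at 1.57 and 1.14, while the next gene, Slc22a4, was at -0.57. On chromosome 17 the neighbours Slc22a3 and Slc22a2 were both higher in KO, at 1.14 and 0.79. Among the Abca genes of chromosome 11, Abca6, in a locus marked FAIL, at 0.54 stood beside Abca9 at -0.29 and Abca8a at -0.28. Those lower values were close to the median of all genes, and after centring they were -0.045 and -0.037. With only the stronger row of Abca9 its log2 ratio was 0.018 on the pseudocount scale. Log2 ratios above and below 0 therefore occurred in 4 of the 5 stretches drawn, in the Abca stretch with lower values near the median of all genes. The signs of Abcb1b, Abcb4, Slc22a5, Slc22a4, Slco1b2 and Slco1a4 held under every scaling.

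**Figure D4:**
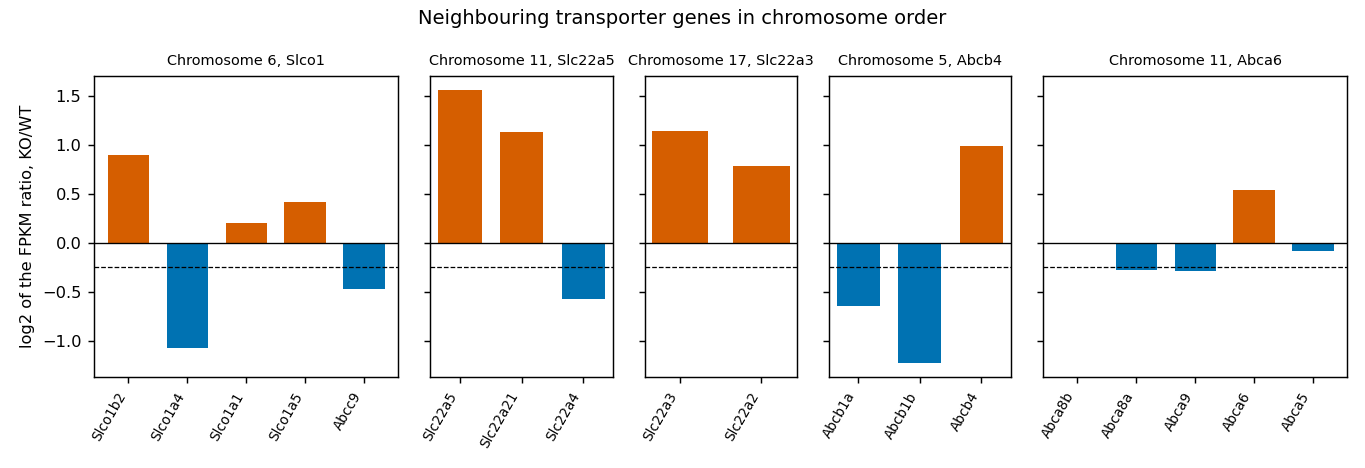
log2 of the FPKM ratio, KO/WT, of neighbouring transporter genes in chromosome order, for 5 stretches, with orange bars higher and blue bars lower in KO and the median of all genes at -0.24 as a dashed line. Slco1c1 and Slco1a6, with mean FPKM of 0.0348 and 0.00892, are left out, and the bar of Abca8b, at -0.01, is too short to see.

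Ppard lies on chromosome 17, as do 9 of the 43 expressed transporter genes. Of these 9 genes 3 were lower and 6 higher in KO, with a median log2 ratio of 0.21 without a pseudocount, and of the other 34 genes 22 were lower and 12 higher, with a median of -0.25. Over all 594 expressed genes of chromosome 17, 458 were lower and 136 higher, with a median of -0.25. Abcf1, among the 3 lower genes, changes side with upper-quartile scaling or centring. The closest to Ppard were Abcg1 at 2.82 Mb and Abca3 at 3.88 Mb, with log2 ratios of -1.05 and 0.68. Slc22a3 lay 15.8 Mb away, and the part of that distance in any ratio was not tested.

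The nuclear receptors and other factors known to regulate liver transporters were read beside them. Of 16 such regulators 6 were lower and 10 higher in KO, beside 8866 and 2857 of all 11723 expressed genes. The regulators had a median log2 ratio of 0.06, beside -0.24 over all genes. None was over 2-fold lower, and 2 were over 2-fold higher, beside 1.77% of all genes. Nr1i3 (CAR), the xenobiotic receptor, stood at 35.6 FPKM in WT and 75.6 in KO, with KO/WT at 2.12. Nr0b2 (SHP), the repressor induced by bile acids, stood at 15.4 FPKM in WT and 34.2 in KO, with KO/WT at 2.22. The most abundant were Hnf4a, the hepatocyte identity factor, at 172 FPKM in WT and 193 in KO, and Rxra, a partner of receptors such as Nr1i3, at 91.2 and 114. A link between these factors and any transporter was not tested.

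Carriers of other families served as a further comparison. Of the 16 found, 8 were lower and 8 higher in KO. Over the 11 expressed, 5 were lower and 6 higher, beside 8866 and 2857 of all 11723 expressed genes. The median log2 ratio of the 11 was 0.07, beside -0.24 over all genes. Slc10a1 (Ntcp), the sodium-dependent bile acid carrier, stood at 217 FPKM in WT and 168 in KO. Mttp, which loads lipid onto apolipoprotein B, stood at 76.7 FPKM in WT and 102 in KO, and the nucleoside carrier Slc29a1 at 90.5 and 85.4. Of these 11 expressed carriers, the only one past 2-fold was Ostb, beside 8.69% of all genes over 2-fold lower. Ostb, a subunit of the basolateral bile acid exporter, stood at 1.83 FPKM in WT and 0.228 in KO, so that WT was 8.05-fold higher.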

How the data were processed

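Liver RNA of 1 WT and 1 KO mouse library, prepared with a TruSeq kit that does not mark strand, was sequenced on an Illumina instrument. The labels name paired end reads and the study's methods single end reads. The authors aligned reads to NCBI37 (mm9) with TopHat 2.0.0, assembled transcripts with Cufflinks 1.3.0 and estimated FPKM with Cuffdiff, and these versions are also in the submitters' processing notes. The deposited FPKM values are 1 per locus and library, and no source used here says whether quartile normalization was applied. The authors' columns of fold change, test statistic, p-value and q-value hold their own comparison and were not used, and 0 other columns of values per sample were left unused.

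The table held 38016 loci, of which 2302 had no symbol and 850 named several, each given the joint value. The 21 loci marked HIDATA were left out. Rows of 1 symbol were summed. Symbols were matched to GENCODE vM1 on NCBIM37 for exons and shared 100-base stretches. Genes entered counts at a mean FPKM of at least 1, and medians used log2(FPKM + 0.1), which understates changes of low genes. A gene counts as called past 2-fold, with no test, since there were no replicates. Of 91 genes listed by role, 9 are not analysed here. The fragment unit came from the low values, 58 in WT and 64 in KO, among 485 single-exon genes of at least 1500 bases. Fragments of a gene assume the length of its longest annotated transcript, and intervals of ratios are exact binomial at 95%. Tools were Python 3.11.15, pandas 2.3.3, numpy 2.4.6, matplotlib 3.10.9 and scipy 1.17.1, and the steps were checked on simulated libraries. Named were every member whose mean FPKM was 1 or more, for means from 0.1 to 1 the 3 largest folds each way, Ppard, the 3 most abundant genes of each other list, and every other carrier or regulator past 2-fold. Some genes that this rule names are not reported here. Members named outside this rule were chosen after their values were seen. The members and lists were chosen with earlier results of these data known. Alternatives changed the fold, the expression limit, the pseudocount, the scaling of the libraries, and the handling of summed and joint rows.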

Additional observations from a re-analysis of the deposited data

How the results depend on the processing

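No direction of a gene past 2-fold turned under any alternative, but counts followed the thresholds. Transporter genes over 2-fold lower in KO numbered 3, and 6 at 1.5-fold, 1 at 3-fold, 8 with a mean FPKM of at least 0.1, 1 with at least 5, 13 without a limit, and 1 after upper-quartile scaling or centring. Those higher numbered 2, and 7 at 1.5-fold, 0 at 3-fold, 6 without a limit, and 4 after upper-quartile scaling or centring. Over all genes 1226 passed 2-fold, 1019 lower and 207 higher. At 1.5-fold these were 2822, 2330 and 492, at 3-fold 559, 487 and 72, at a mean of at least 0.1 they were 2543, 2104 and 439, at 5 they were 533, 409 and 124, and without a limit 5893, 4314 and 1579. Upper-quartile scaling gave 762 lower and 314 higher, and centring 723 and 338. Behind these counts stood 43 transporters of 11723 genes at a mean of at least 1, and 55 of 15727 at 0.1. Without a limit they were 82 of 33224, after upper-quartile scaling 45 of 11829 and after centring 46 of 11862. Shares at 1.5-fold and 3-fold were not compared, so these counts describe the thresholds and not the transporters. The median log2 ratio of the transporters, -0.08, was 0.11 after upper-quartile scaling and 0.14 after centring, and that of the mitochondrial and lysosomal genes, -0.07, was 0.13 and 0.17. Other group medians turned in the same way. That of the lipid transporters, -0.05, was 0.11 and 0.14, and that of the translation proteins, -0.07, was 0.13 and 0.17. For the Abcc genes other than the canalicular Abcc2 and the channel subunits, a median of -0.00077 became 0.20 and 0.24. These scalings add the same shift to every gene. Of 300 values of single expressed genes under alternatives, 197 moved by less than their counting interval and 103 by more. No paired analysis was possible because the 2 libraries share no pairing label, and none can be left out with 1 per genotype. Low values rest on few fragments, at most 34.9 in a library for genes with a mean below 0.1.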

Other observations

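Of the 13 transporter genes with a mean FPKM between 0.000588 and 0.0909, Abca14, an Abca gene best known from testis and named after its values were seen, stood at 0.0438 FPKM in WT and 0.114 in KO, on 12.1 and 34.9 estimated fragments. Slco4a1, a thyroid hormone carrier named in the same way, stood at 0.0809 FPKM in WT and 0.0389 in KO, a ratio with an interval from 0.164 to 1.31. The 14 genes listed at 0 in both libraries included the brain and testis carriers Slco5a1, Slco6b1, Slco6c1 and Slco6d1, the pancreatic channel subunit Abcc8, the skin lipid transporter Abca12 and the kidney anion carrier Slc22a6. A value of 0 here allows up to 3 fragments.

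The tissue label was read against marker lists. Hepatocyte markers, led by Serpina1c, Fgb and Apoa1, summed to 19089 FPKM in WT and 19197 in KO, 5 of 10 lower and 5 higher. Of 9 cholangiocyte markers, Spp1 and Sox9 among them, 7 were lower and 1 higher, and the sum was 34.2 FPKM in WT and 29.8 in KO, with 1 marker at 0 in both. Most of that sum was Spp1, at 24.5 FPKM in WT and 22.7 in KO. Krt19, at 1.72 and 0.559 FPKM, and Krt7, at 1.12 and 0.360, were over 2-fold lower in KO. These keratins were named after their values were seen. The endothelial list was led by Clec4g, Eng and Stab1, the Kupffer cell list by Clec4f, Lyz2 and Marco, and the stellate list by Dcn, Reln and Col1a1. Erythroid markers, led by Hba-a1, Hbb-b1 and Hba-a2, summed to 506 FPKM in WT and 419 in KO, 5 of 7 lower. Lymphocyte markers, led by Cd4, Cd79b and Cd79a, summed to 0.885 and 0.487 FPKM, 6 of 8 lower. Kidney tubule markers, led by Lrp2, Slc22a12 and Slc34a1, of which Slc22a12 is a transporter of the set, summed to 0.141 and 0.0631 FPKM, with 4 of 8 at 0 in both. Of the intestinal markers, led by Fabp2, Vil1 and Slc15a1, 3 of 5 were lower, and the sum of 24.5 FPKM in WT and 51.2 in KO was almost all Fabp2, at 24.4 and 51.2.

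Several Slco and Slc22 genes differ between male and female mouse liver, and genes of known sex bias were read for that reason. Of 9 genes typical of male liver, led by Serpina1e, Mup20 and Cyp2d9, 5 were lower and 4 higher in KO, and the sum was 6855 FPKM in WT and 7001 in KO. Mup20, a urinary pheromone protein, stood at 3221 FPKM in WT and 370 in KO, while Serpina1e, a protease inhibitor, stood at 2761 and 5493. Of 12 genes typical of female liver, led by Cyp2a4, Cyp3a44 and Acot3, 5 were lower and 6 higher, with Hao2 at 0 in both, and the sum was 18.6 and 12.2 FPKM. The part of sex-biased expression in any transporter value was not tested.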
